A study of Mus musculus with 8 samples.

Results

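Heparanase and 7 lysosomal enzymes that break down glycosaminoglycans were examined for H3K27ac (histone H3 acetylated on lysine 27), which marks promoters and enhancers in use, in microglial chromatin of wild-type (WT) and GrnKO mice. The 8 genes were Hpse, Sgsh, Naglu, Hgsnat, Ids, Idua, Gusb and Arsb. They were selected on earlier results of the same WT and GrnKO H3K27ac libraries. The H3K27ac difference between genotypes at these genes is therefore a description, given without p-values. Past the threshold means an adjusted p under 0.05 in the fit over all regions or all genes. At these genes it is a label that sorts the values and not a test. Their regions were all rows of the table that name one of the 8 as the nearest gene, which gave 45 of 129304 regions and 8 of 18707 genes. Scaled to library totals, GrnKO libraries carried 5.60 times as many tags over Hpse and 2.42 times as many over Sgsh as WT libraries. After TMM scaling, the main scaling for log2 changes, these ratios were 5.05 and 2.17. At Naglu the regions at the start stood higher in GrnKO while the more distant regions did not, and at Gusb, Arsb, Ids and Hgsnat no region passed the threshold.

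The mice were C57BL/6, 2 years old, and either WT or GrnKO, that is, without functional Grn, the gene of the lysosomal and secreted protein progranulin; the labels do not describe the allele. All were perfused with PBS, a hemibrain was frozen, and fixed nuclei were sorted as DAPI-positive singlets that were PU.1+, OLIG2- and NEUN-, a gate that any PU.1-expressing myeloid cell of the brain can pass. Nuclei of 2 mice were combined for every replicate. There were 2 H3K27ac libraries per genotype, each with an input library of the same chromatin before immunoprecipitation. Pools of different mice are the replicates, so p-values measure the spread between 2 pools per genotype.

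Glycosaminoglycans such as heparan sulfate, chondroitin sulfate and dermatan sulfate are long sulfated sugar chains carried by proteoglycans of the cell surface and matrix. Heparanase cuts heparan sulfate within the chain, and lysosomal enzymes then remove sulfate groups and sugars one after another from the chain end. Inherited loss of 1 of the lysosomal enzymes leaves the chain undegraded and causes a mucopolysaccharidosis, in which microglia are among the cells with swollen lysosomes. Progranulin is cleaved in lysosomes, and its loss is known to disturb lysosomal function and to leave microglia in an activated state.

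Of the 8 genes, 7 had a promoter sequence in the RefSeq set (build GRCm38.p6, the mm10 build that the submitters' processing notes name). The 250 bases before the start are printed 5′ to 3′ on the strand of transcription for Hpse, Sgsh and Naglu, because these were the members with start regions past the threshold. Capitals mark an extended E-box, TCACGTG or its reverse complement CACGTGA, a form of the site that basic helix-loop-helix factors such as TFEB and USF can bind.
Hpse, minus strand, chr5:100719717-100719966: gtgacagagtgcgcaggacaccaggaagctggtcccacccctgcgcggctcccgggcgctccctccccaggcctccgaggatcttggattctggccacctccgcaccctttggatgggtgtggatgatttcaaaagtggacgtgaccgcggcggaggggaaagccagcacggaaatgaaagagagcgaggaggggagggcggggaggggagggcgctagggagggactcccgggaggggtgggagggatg
Sgsh, minus strand, chr11:119355511-119355760: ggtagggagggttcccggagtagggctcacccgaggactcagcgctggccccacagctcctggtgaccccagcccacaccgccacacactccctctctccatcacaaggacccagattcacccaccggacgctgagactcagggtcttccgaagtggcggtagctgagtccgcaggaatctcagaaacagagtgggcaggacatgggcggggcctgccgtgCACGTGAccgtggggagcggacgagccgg
Naglu, plus strand, chr11:101069844-101070093: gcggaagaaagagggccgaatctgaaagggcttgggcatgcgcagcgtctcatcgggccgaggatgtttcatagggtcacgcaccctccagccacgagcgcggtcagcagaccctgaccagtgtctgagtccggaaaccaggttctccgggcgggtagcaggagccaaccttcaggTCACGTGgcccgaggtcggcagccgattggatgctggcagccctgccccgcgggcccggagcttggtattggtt
The Sgsh match began 29 bases before the start and the Naglu match 74 bases before it. The other 5 matched promoters, Hpse among them, held no such run of letters. TCACGTG was searched on both strands, overlapping the shorter CACGTG by construction, and was found in 3.13% of 32851 RefSeq promoter windows of the same length, against 6.02% for CACGTG. The GC box GGGCGG was found in Hpse, Sgsh and Naglu and in 32.7% of all windows. TCATGTG, the AP-1 site TGANTCA and the ETS site CCGGAAGT were found in none of the 7 and in 3.25%, 6.75% and 2.88% of all windows. GC content was 66.8% in Hpse, 66.0% in Sgsh and 64.4% in Naglu, with 16, 16 and 20 CpG pairs, where the median window had 52.4% and 6 pairs. Gusb and Idua, at 49.6% and 52.8%, had 3 CpG pairs each, Ids had 9 at 50.4%, and Arsb had 18 at 58.8%. A match of letters is a description of the window only.

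Values are scaled tags, the tags in a region of 800 bp at a library total of 10000000. All regions have the same width, so levels of single regions can be compared between genes, whereas sums depend on how many regions a gene has. The H3K27ac libraries held 15491642.5 to 20030832 tags and the inputs 4078179 to 14415969. The listed regions took 49.4% of tags in WT replicate 1 and 63.3% to 65.7% in the other H3K27ac libraries. Log2 changes are GrnKO minus WT on log2(scaled tags + 1) after TMM scaling, where the median of all tested regions was -0.0020; with the authors' scaling alone that median is 0.22, and each log2 change shifts up with it. The 3 Grn promoter regions carried 1083 and 1076 scaled tags in WT and 7.34 and 6.49 in GrnKO, as the labels have it. Start regions were found for 9 of 10 microglial markers. The highest start-region value of each marker in each library was summed, which gave 3503 to 5069 in WT and 4307 to 4341 in GrnKO. Markers of other cells were summed in the same way, so the region that counts can differ between libraries. Neuronal markers (3 of 6 with a start region) stayed between 0 and 4.99, T and B cell markers (1 of 4) between 0 and 2.26, and astrocyte markers (3 of 5) between 0.81 and 16.5 in all 4 libraries. Oligodendrocyte lineage markers (6 of 7) summed to 61.0 to 72.0 in WT and 59.7 to 69.7 in GrnKO, and border macrophage markers (2 of 4, Mrc1 and Pf4) to 75.2 to 112 and 108 to 124. A pair of markers moved with genotype in the limma fit with Benjamini-Hochberg adjustment over all regions. Flt1, the only one of 4 endothelial markers with a start region, had 5.81 to 14.1 in WT and 64.8 to 67.7 in GrnKO, and all 3 of its start regions rose (log2 change 2.31 to 3.32, adjusted p from 0.000425 to 0.0076). S100a8, the only one of 4 neutrophil markers with a start region, had 0 to 5.43 in WT and 20.2 to 22.02 in GrnKO and also rose (log2 change 3.04, adjusted p = 0.036). In pooled nuclei, a change in the share of a cell type and a change in the mark per nucleus cannot be told apart.

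Of the 45 regions, 36 carried enough tags to be tested in the fit over all regions. GrnKO was past the threshold upward in 10 of the 36, where 6.8% of all 80728 tested regions were called higher, and downward in 0, where 2.92% of all were called lower. These shares restate the selection of the genes and are not read further. The 10 regions were 5 of Hpse, 3 of Sgsh and 2 of Naglu. With GrnKO replicate 1 left out, 3 of the 10 were past the threshold, namely Hpse intron 2, the Hpse start and Naglu intron 1, and with GrnKO replicate 2 left out, 7. Those that lost it with either GrnKO library left out were the Hpse region at -9.23 kb, the Naglu start region and Sgsh intron 2. Among the 11 regions within 1000 bp of a member's start 5 were past the threshold upward, against 3.57% of all such regions. Of the 25 others that were tested another 5 were, where 6.8% of all tested regions, start regions included, were called higher. The median log2 change of the 36 regions was -0.03, against -0.0020 over all tested regions, and after TMM scaling the GrnKO values lay above both WT values in 12 and below both in 11. In the authors' scaling, which the values per library below use, these counts were 17 and 4. In either scaling all 9 tested regions of Hpse and Sgsh were among those above. The share of all tested regions separated in this way was not taken, so these counts describe the members only.

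**Figure D1:**
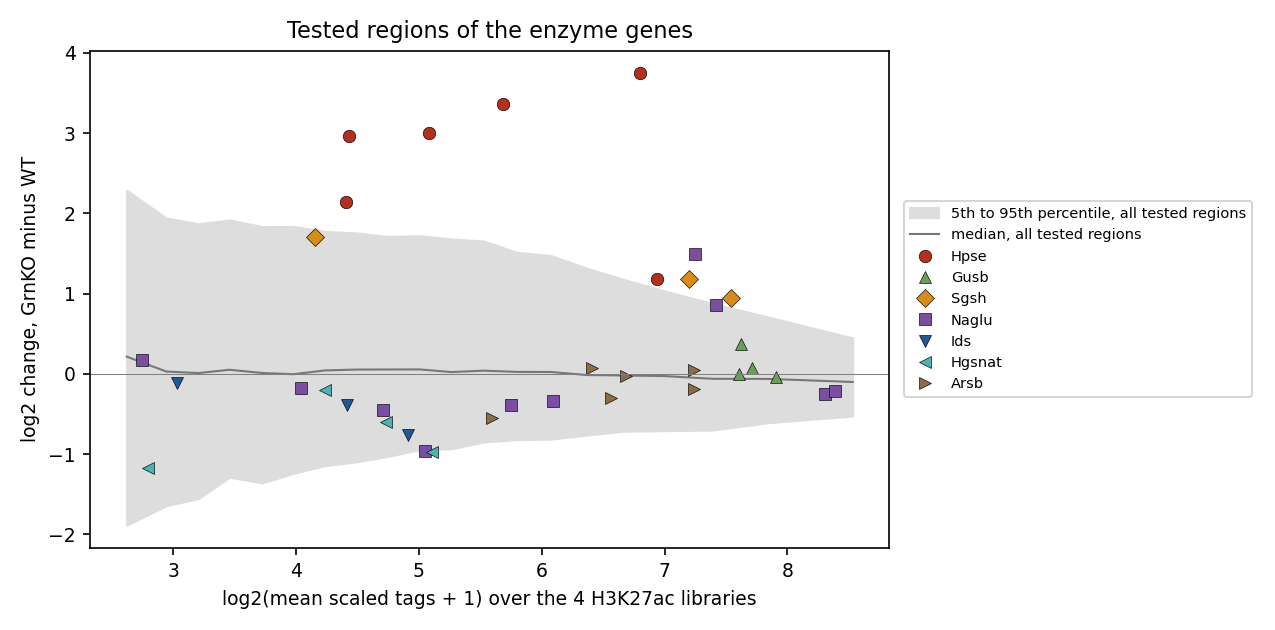
Log2 change of H3K27ac, GrnKO minus WT after TMM scaling, for the 36 tested regions (y axis) against the log2 of the mean scaled tags + 1 over 4 libraries (x axis). The grey band spans the 5th to 95th percentile and the grey line the median of all tested regions at a similar level; the Hpse points reach 3.74, and most Gusb and Arsb points lie near 0.

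Hpse encodes heparanase, the endoglucuronidase that cuts heparan sulfate inside the chain. The gene lies on the minus strand of chromosome 5 from 100679484 to 100719716, and 6 regions were assigned to it, all tested. Summed over them, WT replicates had 77.5 and 151 scaled tags and GrnKO replicates 662 and 620.3. The lowest GrnKO sum was thus far above the highest WT sum, and the mean went from 114 ± 52.3 in WT to 641 ± 29.1 in GrnKO (SD, n = 2 each). The log2 change was 2.36 (SE 0.20) with TMM scaling and 2.55 with the authors' scaling. Ordered by log2 change, Hpse stood at position 119 of 15380 tested genes.

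The largest values in GrnKO were in intron 2 of 11, at chr5:100709840-100710640, 9.48 kb downstream of the start. This region had 9.36 and 18.99 scaled tags in WT and 226 and 219.9 in GrnKO. The log2 change was 3.74 (SE 0.29), and the ratio of means was 15.7, or 13.9 after TMM scaling. At chr5:100719204-100720004, over the start and exon 1 of 12, WT had 10.0 and 5.43 and GrnKO 93.0 and 107, a log2 change of 3.36 (SE 0.41). Both regions were low in both WT libraries and high in both GrnKO libraries, with no overlap. Upstream, at -6.42 kb (chr5:100725737-100726537), WT had 2.26 and 13.8 and GrnKO 67.3 and 57.9, a log2 change of 3.00 (SE 0.54) that was 2.04 with WT replicate 1 left out and 3.97 with WT replicate 2 left out. At -9.23 kb (chr5:100728548-100729348) WT had 2.90 and 4.34 and GrnKO 46.8 and 34.0, a log2 change of 2.97 (SE 0.55). These upstream sites repeated the pattern of the intron and start at lower levels, and 3 of their 4 WT values were under 5 scaled tags, where the floor of 3 tags is 1.94 and 1.63 in the WT libraries.

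WT values at Hpse were highest in a more distant region. At -31.1 kb (chr5:100750408-100751208) WT had 51.6 and 89.5 and GrnKO 192 and 173, a log2 change of 1.18 (SE 0.22). This region held 61.7% of the Hpse sum in WT and 28.5% in GrnKO, while the share of the intron 2 region went from 12.4% to 34.8%. Against WT input the log2 difference of WT H3K27ac was 4.91 (SE 1.05) at this region and 1.92 at the intron. These differences are descriptions, since WT values took part in the selection. At -32.3 kb (chr5:100751579-100752379) WT had 1.29 and 19.3 and GrnKO 36.7 and 29.0, a log2 change of 2.14 (SE 0.71) that did not pass the threshold; it passed with the authors' scaling, with a pseudocount of 5, with the replicate block and with WT replicate 2 left out (3.60), and was 0.67 with WT replicate 1 left out. The 3 regions farthest upstream lie within Gm36619, a long noncoding RNA gene at chr5:100727099-100754255, so their assignment to Hpse rests on distance alone. The Flt1 and S100a8 start regions moved in the same direction in the same libraries as Hpse, and their part in the result was not tested.

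**Figure D2:**
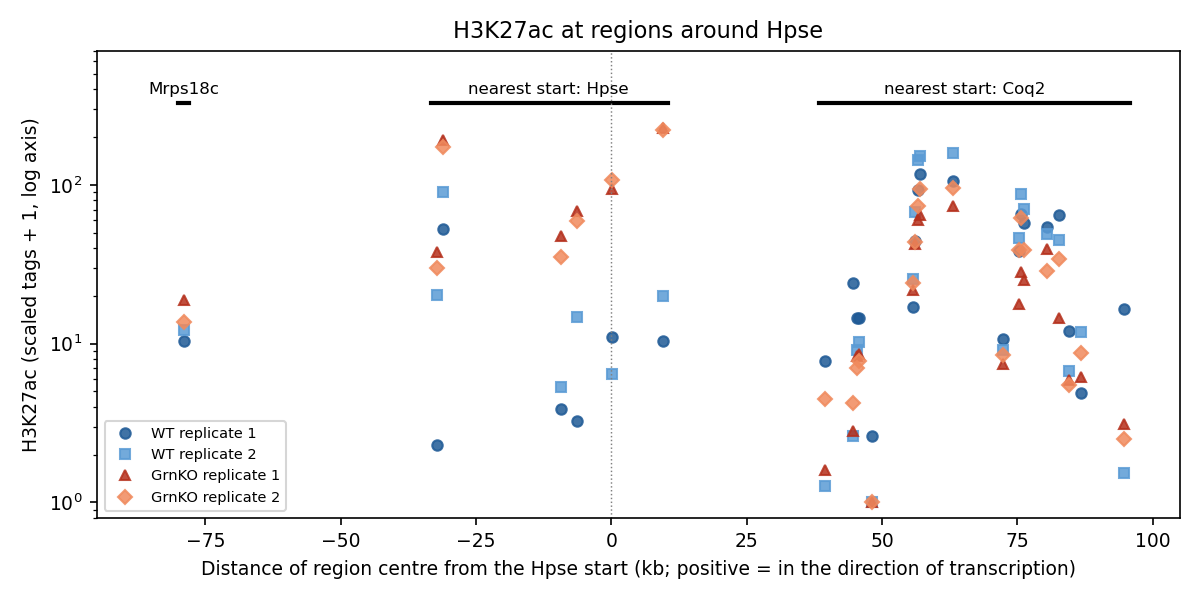
Scaled tags + 1 per region (log y axis) in each H3K27ac library against the distance of the region's centre from the Hpse start in kb (x axis, positive in the direction of transcription). From -32.3 to 9.48 kb the GrnKO symbols lie above the WT symbols, and from 39.4 to 94.8 kb, over regions assigned to Coq2, most GrnKO symbols lie at or below them.

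No region assigned to another gene within 100 kb of the Hpse start rose. Coq2, which encodes an enzyme of coenzyme Q synthesis and lies next to the 3′ end of Hpse (chr5:100654723-100674288), had 19 of these regions, of which 14 were tested, 0 rose and 6 fell (limma, adjusted p from 0.010 to 0.046). At chr5:100662738-100663538, for example, WT had 92.3 and 142 and GrnKO 58.7 and 73.1, a log2 change of -1.02 (SE 0.24, limma adjusted p = 0.010). All 14 log2 changes were negative with TMM scaling and 13 of 14 with the authors' scaling, under which 0 of the 6 calls held. With GrnKO replicate 1 left out, 0 held as well. The single region of Mrps18c, a mitochondrial ribosomal protein gene, had 9.36 and 11.1 in WT and 17.7 and 12.7 in GrnKO; both GrnKO values were the higher, and the log2 change of 0.31 (SE 0.55) did not pass the threshold.

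The genes whose sums over the 4 libraries were most like those of Hpse, by Euclidean distance of centred log2 sums, were Htr1a (distance 0.080), Dmxl2 (0.123) and Wfdc13 (0.167). Dmxl2 had 27.1 and 50.7 scaled tags in WT and 224 and 233 in GrnKO over 5 regions. Htr1a and Wfdc13 had sums between 1.29 and 8.14 in WT and between 15.9 and 40.7 in GrnKO. With 2 libraries per genotype, this likeness is little more than a similar size of change.

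Sgsh, Hgsnat and Naglu act in that order on the glucosamine at the end of a heparan sulfate chain, and loss of each causes a form of Sanfilippo syndrome. Sgsh encodes sulfamidase, which removes the N-linked sulfate. Its start at chr11:119355510 shares 2 bp with the start of Slc26a11, an anion transporter gene transcribed the other way. The mark there cannot be assigned to either gene alone. At chr11:119355106-119355906, over the start, WT had 94.2 and 143 scaled tags and GrnKO 290.2 and 238, a log2 change of 0.94 (SE 0.18). The next region, chr11:119354611-119355411, which overlaps it by 305 bp and is annotated to the Slc26a11 promoter, had 63.9 and 106 in WT and 232 and 206 in GrnKO (log2 change 1.18, SE 0.20). Both GrnKO values exceeded both WT values in each region, and the tags of the overlap count in both. In intron 2 of 7 (chr11:119351892-119352692) WT had 5.16 and 8.95 and GrnKO 26.3 and 30.5, a log2 change of 1.70 (SE 0.52) that lost the threshold with no filter on low values and with either GrnKO library left out. The 2 other Sgsh regions had at most 6.49 scaled tags and were not tested.

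Summed over its 5 regions, Sgsh had 163 and 263 scaled tags in WT and 551 and 483 in GrnKO, with means of 213 ± 70.6 and 517 ± 48.7 (SD, n = 2 each). The log2 change was 1.12 (SE 0.17). Regions near the start held 95.4% of the WT sum, so at Sgsh the sum describes the promoter.

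Naglu encodes the glucosaminidase that removes the terminal N-acetylglucosamine. Over its start, at chr11:101069548-101070348, WT had 102 and 122 scaled tags and GrnKO 243 and 231, a log2 change of 0.85 (SE 0.18). In intron 1 of 5, at chr11:101070223-101071023, WT had 78.1 and 67.3 and GrnKO 230.0 and 251, a log2 change of 1.49 (SE 0.21). The groups did not overlap in either region, and the 2 regions share 125 bp. The other 9 regions assigned to Naglu all lie upstream, 7 of them over Atp6v0a1 (chr11:101009422-101063719), a subunit gene of the lysosomal proton pump. Those 7 were all tested, with log2 changes from -0.97 to 0.17, and none passed the threshold. The strongest of the 9 were an overlapping pair at the Atp6v0a1 3′ end, which held 61.7% of the Naglu sum in WT: chr11:101063397-101064197 had 276 and 362 in WT and 293 and 332 in GrnKO, and chr11:101063803-101064603 had 301 and 366 in WT and 309 and 361 in GrnKO. WT and GrnKO values overlapped at both in the authors' scaling, and after TMM scaling both GrnKO values lay below both WT values there and at 3 others of the 9.

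Summed over all 11 regions, Naglu had 936 and 1179 in WT and 1248 and 1374 in GrnKO, with means of 1058 ± 172 and 1311 ± 89.5 (SD, n = 2 each) and a log2 change of 0.13 (SE 0.11). The regions within 1000 bp of the start, which held 17.5% of the WT sum, gave 1.16 (SE 0.16) on the same scale and the regions beyond gave -0.25 (SE 0.13). The whole-gene sum of Naglu therefore hides start regions that stood higher in GrnKO. Most of the sum comes from upstream regions in or near Atp6v0a1, and which gene they serve was not tested.

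**Figure D3:**
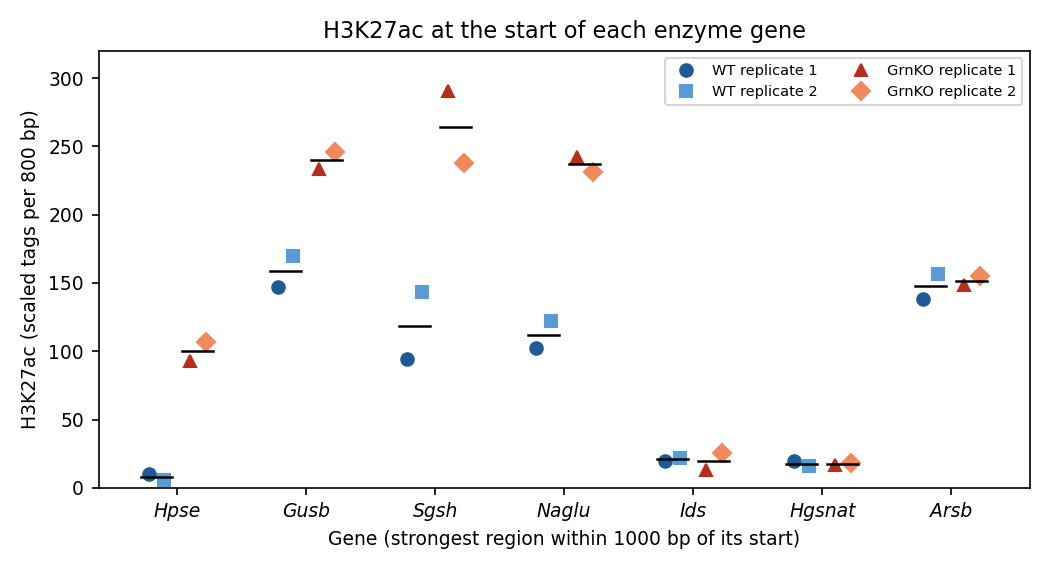
H3K27ac at the strongest region within 1000 bp of the start of each gene, in scaled tags per 800 bp (y axis), 1 symbol per library and a bar at the mean of each genotype. GrnKO lies above WT at Hpse, Sgsh, Naglu and Gusb, and the genotypes lie at similar levels at Arsb, Ids and Hgsnat; Idua has no assigned region at its start.

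Regions over a RefSeq promoter window were counted by whether the window held TCACGTG, the letters found in Sgsh and Naglu. Over all such regions 3.26% were called higher in GrnKO. With the motif 36 of 817 tested regions rose and 8 fell (4.41% and 0.98%), and without it 412 of 12937 rose and 202 fell (3.18% and 1.56%). The median log2 change was 0.13 with the motif and -0.02 without. The 2 shares were not tested against each other, and most promoters with the motif were not called. The start regions of Sgsh and Naglu lie over windows with the motif and were past the threshold upward, so the count is not independent of them.

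Hgsnat encodes the lysosomal membrane acetyltransferase that acetylates the glucosamine left by sulfamidase. Its start region, chr8:25976347-25977147, had 19.4 and 15.7 scaled tags in WT and 16.8 and 18.5 in GrnKO, which overlap, with a log2 change of -0.20 (SE 0.47). The strongest region, chr8:25980013-25980813, is annotated to the transcript end of the neighbouring gene Pomk and had 55.8 and 25.8 in WT and 25.1 and 19.5 in GrnKO (log2 change -0.98, SE 0.44). WT replicate 1 stood apart there from the 3 other libraries. The largest log2 change, -1.17 (SE 0.87), was in intron 4 of 17 (chr8:25969138-25969938), where WT had 9.36 and 5.97 scaled tags and GrnKO 5.20 and 2.00. The sum was 125 and 64.3 in WT and 71.0 and 56.4 in GrnKO, a log2 change of -0.68 (SE 0.35) that did not pass the threshold. It was -1.29 and past the threshold with WT replicate 2 left out and -0.06 with WT replicate 1 left out, so its size rests on WT replicate 1. Of the 3 Sanfilippo enzymes measured here, Sgsh and Naglu had start regions past the threshold upward and Hgsnat did not. The genes were selected on these libraries, so this is a description, and the difference between them was not tested.

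Ids and Idua act on the iduronic acid of heparan and dermatan sulfate: Ids removes its sulfate, and its loss causes Hunter syndrome, and Idua removes the sugar, and its loss causes Hurler syndrome. At the Ids start (chrX:70364727-70365527) WT had 20.0 and 21.7 scaled tags and GrnKO 13.2 and 25.7, a log2 change of -0.38 (SE 0.47). In intron 2 of 8 (chrX:70363225-70364025) WT had 22.3 and 49.4 and GrnKO 21.1 and 23.96, a log2 change of -0.76 (SE 0.40) that did not pass the threshold. It was -1.16 and past the threshold with WT replicate 1 left out, and -0.36 with WT replicate 2 left out. WT sums were 50.3 and 81.1 and GrnKO sums 48.6 and 57.7, with a log2 change of -0.45 (SE 0.30), and the groups overlapped at both regions and in the sum. After TMM scaling they overlapped at the start region only. Ids is X-linked, and the pools differed in signs of sex: Xist regions had 81.7 and 0 in WT and 128 and 5.49 in GrnKO, and chromosome Y regions 131 and 403 in WT and 138 and 306 in GrnKO. Replicates 1 and 2 differed in this way in both genotypes alike, and its part in the Ids values was not tested.

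Idua could hardly be measured. Its single assigned region, chr5:108651597-108652397, lies 8.33 kb upstream within an annotated intron, 15 of 22, in the span of Dgkq, and had 0.65 and 0 scaled tags in WT and 4.89 and 0 in GrnKO, too few to be tested. The region next to the Idua start, chr5:108660419-108661219, was assigned to Dgkq and had 4.52 and 3.26 in WT and 13.2 and 4.99 in GrnKO, also too few. A strong region inside Idua, 8.88 kb downstream of its start at chr5:108668811-108669611, was assigned to the transporter gene Slc26a1. It had 132 and 207 in WT and 256 and 315 in GrnKO, which do not overlap, with a log2 change of 0.55 (SE 0.17) that missed the threshold (limma adjusted p = 0.053). Its WT level was above input (log2 difference 7.38, adjusted p = 0.00070).

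Gusb encodes beta-glucuronidase, which removes glucuronic acid and whose loss causes Sly syndrome. Of its 2 regions near the start, chr5:130002048-130002848 was the stronger over all 4 libraries, and there WT had 147 and 169.8 scaled tags and GrnKO 234 and 246. The groups did not overlap, and the log2 change of 0.37 (SE 0.17) did not pass the threshold. The region over the start itself, chr5:130002587-130003387, was the stronger in WT, with 158 and 205 in WT and 210.4 and 209 in GrnKO, a log2 change of -0.01 (SE 0.17). The 2 tested regions farther into the first intron changed by 0.08 and -0.04, and 2 others had at most 3.98 scaled tags and were not tested. Summed, Gusb had 687 and 822 in WT and 884 and 999 in GrnKO, a ratio of 1.25, and a log2 change of 0.13 (SE 0.12). The ratio used the authors' scaling; after TMM it was 1.10, so most of it went with the scaling.

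Arsb encodes the sulfatase that removes sulfate from N-acetylgalactosamine of chondroitin and dermatan sulfate, and its loss causes Maroteaux-Lamy syndrome. Its strongest start region, chr13:93771768-93772568 in intron 1 of 7, had 138 and 157 scaled tags in WT and 148 and 155 in GrnKO. These overlap in the authors' scaling and do not after TMM scaling, and the log2 change of -0.18 (SE 0.18) became 0.04 with the authors' scaling. The largest change, -0.55 (SE 0.31), was at chr13:93776806-93777606, where WT had 52.9 and 50.7 and GrnKO 37.9 and 44.4. The sum was 579 and 626 in WT and 636 and 668 in GrnKO, a log2 change of -0.07 (SE 0.13). None of the 6 tested Arsb regions passed the threshold, and 1 was not tested.

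Over gene sums, 2 of the 7 members that could be tested were past the threshold upward, Hpse and Sgsh, where 9.54% of all 15380 genes were called higher, and 0 downward, where 4.88% of all were called lower. The median log2 change of the 7 was 0.13, against -0.0099 over all genes. Taking for each gene the start region that was strongest over all 4 libraries, WT levels ran from Gusb (158 ± 16.0) and Arsb (148 ± 13.0) over Sgsh (119 ± 34.6) and Naglu (112 ± 13.8) to Ids (20.9 ± 1.195), Hgsnat (17.6 ± 2.57) and Hpse (7.72 ± 3.24), as means ± SD of 2 libraries in scaled tags. Gusb and Arsb overlapped in this choice of region, though with the Gusb region that was strongest in WT (182 ± 33.4) they did not. Overlap was also seen of Sgsh with both Arsb and Naglu, while Ids, Hgsnat and Hpse did not overlap each other or the rest. In GrnKO the order was Sgsh (264 ± 37.2), Gusb (240 ± 8.64), Naglu (237 ± 7.87), Arsb (152 ± 4.72), Hpse (99.9 ± 9.81), Ids (19.4 ± 8.88) and Hgsnat (17.6 ± 1.17). There Sgsh, Gusb and Naglu overlapped, as did Ids with Hgsnat, and Hpse had moved from the lowest place to one above Ids and Hgsnat.

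**Figure D4:**
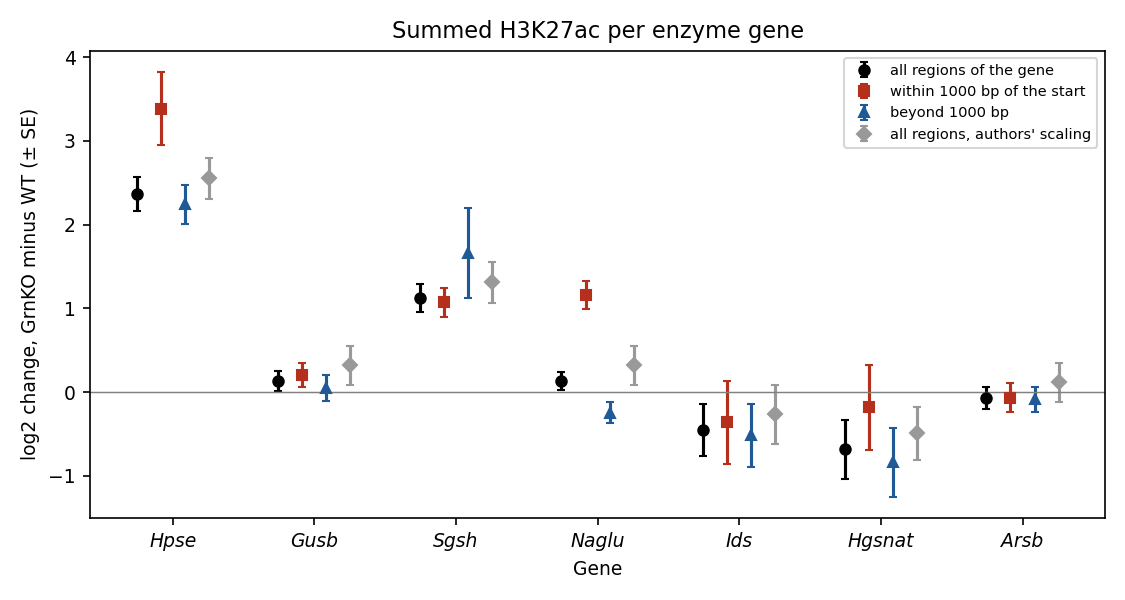
Log2 change of summed H3K27ac, GrnKO minus WT ± SE (y axis), for the 7 tested genes, over all regions, over regions within 1000 bp of the start, over regions beyond, and over all regions with the authors' scaling. Naglu separates by position, at 1.16 near the start and -0.25 beyond, and Hpse is at 2.24 or higher in each form.

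The WT libraries were compared with their inputs. The WT H3K27ac values took part in the selection of the genes, and low WT values favour a large difference, so for the members this is a description with no p-value. Of all 64894 regions tested, 71.7% stood above input in WT (limma with Benjamini-Hochberg adjustment). Of the members, 22 of 29 regions with enough tags did: all 4 of Gusb, both of Sgsh, all 3 of Hgsnat, 5 of 6 of Arsb, 6 of 8 of Naglu, 1 of 2 of Ids and 1 of 4 of Hpse. The count over all members lies near the background share.

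Inputs were compared between genotypes to see whether the amount of chromatin at the genes differed. Of 8111 genes tested with limma, 0 were called and 171 (2.11%) had an unadjusted p under 0.05; of the 4 members tested, 0 were called and 0 had an unadjusted p under 0.05. Over the Hpse regions the inputs had 52.7 and 49.7 scaled tags in WT and 47.2 and 40.8 in GrnKO, a log2 change of -0.02 (SE 1.33). With an SE of that size the comparison cannot decide whether the inputs differed. All tags of WT input replicate 1 lay in the region at -32.3 kb, and all those of GrnKO input replicate 2 in intron 2. The WT H3K27ac sum of Hpse, 77.5 and 151, was not far above the WT input sums. Over Gusb the inputs had 0 and 0 in WT and 40.9 and 60.2 in GrnKO. This difference had an adjusted p of 1.00 in the fit of all 4 inputs; with GrnKO input replicate 2 left out, 228 genes were called, Gusb among them.

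The other genes of glycosaminoglycan turnover were taken from lists chosen by function, with earlier results of these data known. Their adjusted p-values are therefore not an independent test. Among 22 other degrading enzymes and activators, 19 were tested, 2 rose and 0 fell, with a median log2 change of 0.18 against -0.0099 over all genes. Ctsa, the protective protein that stabilises beta-galactosidase, rose by 0.87 on the log2 scale (SE 0.15, limma adjusted p = 0.0012), from 242 and 376 scaled tags in WT to 603 and 659 in GrnKO. Arsg, a sulfatase of heparan sulfate, rose by 0.61 (SE 0.13, adjusted p = 0.0057), from 435 and 465 to 819 and 752, and lost the call without GrnKO replicate 1 (adjusted p = 0.13) and over regions beyond 1000 bp of the start (adjusted p = 0.20). The share of this list called higher, 2 of 19, lies near the background for gene sums.

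Among 36 genes of heparan and chondroitin sulfate synthesis, 34 were tested, 4 rose and 5 fell, where 9.54% and 4.88% of all genes did, with a median of -0.09. Of those that rose, Xylt1 and Xylt2 attach the first xylose to the core protein, B4galt7 adds the galactose that follows, and Ndst1 starts sulfation of heparan sulfate. B4galt7 went from 16.1 and 14.1 scaled tags to 71.0 and 79.1 (log2 change 2.06, SE 0.38, limma adjusted p = 0.0019), and Xylt2 from 32.3 and 46.9 to 159 and 132 (1.69, SE 0.27, adjusted p = 0.00058). Ndst1 went from 481 and 542 to 1533 and 1297 (1.27, SE 0.13, adjusted p = 7.8e-06) and Xylt1 from 1165 and 1220.1 to 2570.2 and 2707 (0.96, SE 0.11, adjusted p = 2.2e-05). In each of these 4 genes both GrnKO values lay above both WT values. Those that fell were Hs6st2 (log2 change -0.71), Ust (-0.67), Papss1 (-0.45), Chsy1 (-0.43) and Hs3st3b1 (-0.38), with limma adjusted p from 0.0071 to 0.031; the first, second and last are sulfotransferases, Papss1 makes the sulfate donor, and Chsy1 extends chondroitin. All 5 lost the call with the authors' scaling and with GrnKO replicate 1 left out. The 4 that rose kept it in both, and B4galt7 lost it with GrnKO replicate 2 left out (adjusted p = 0.054).

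Among 26 core proteins, hyaluronan synthases and the receptor Cd44, 14 were tested, 1 rose and 1 fell (background 9.54% and 4.88%), with a median of -0.03. Gpc1, the glypican that carries heparan sulfate on a lipid anchor, rose by 1.61 on the log2 scale (SE 0.22, limma adjusted p = 0.00015), from 55.5 and 69.2 scaled tags to 214 and 223. Srgn, the granule proteoglycan serglycin, fell by 0.43 on the log2 scale (SE 0.11, adjusted p = 0.018), from 919 and 1085 to 843 and 844, and lost the call with either GrnKO library left out. Over the 3 lists, 7 of 67 tested genes rose and 6 fell, the first near the background share of 9.54% and the second set against 4.88%, and the 6 that fell all lost the call with the authors' scaling.

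**Figure D5:**
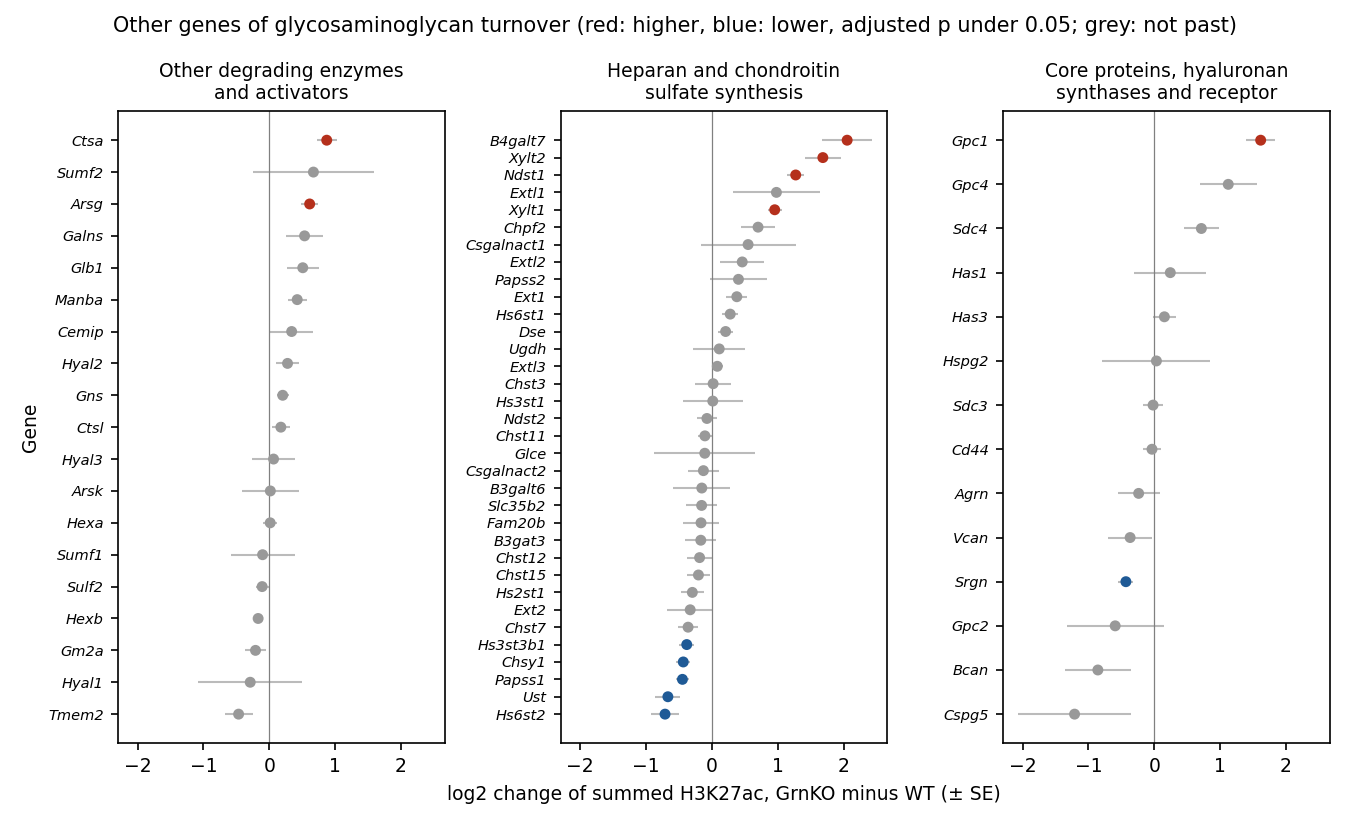
Log2 change of summed H3K27ac, GrnKO minus WT ± SE (x axis), for each tested gene of the 3 lists (y axis), with genes past an adjusted p of 0.05 in red (higher) or blue (lower) and the others in grey. B4galt7, Xylt2, Gpc1 and Ndst1 lie at 1.27 or higher, and the blue points lie between -0.71 and -0.38.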

How the data were processed

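H3K27ac and input tags in regions of 800 bp came from the table the authors deposited, and reads were not reprocessed. Its values are signal: per the file headers, the authors' tag numbers refer to 10000000 tags per library. The submitters' processing notes name Bowtie2, HOMER, DESeq2 and mm10, without versions. The region list merges reproducible ATAC-seq peaks, and its name also carries the words sgshko and eko, which the labels do not explain; regions open in 1 genotype may not be listed, and this was not tested. Multiplying by the library totals returned whole read ends, 2 per tag, for 100% of values to within 0.0300 ends (GrnKO H3K27ac replicate 2, the deepest).

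For regions, the TMM factors of WT replicates were 0.825 and 1.04, and both GrnKO factors were 1.08. Regions, and tags summed per gene over regions of that nearest gene, passed edgeR's filterByExpr (grouped by genotype) with a minimum of 10 tags, and log2(value + 1) was fitted with limma (lmFit, eBayes with trend) with Benjamini-Hochberg adjustment at 0.05. This scale understates the change of low regions. WT H3K27ac was compared with WT input in the authors' scaling. R 4.3.3, limma 3.58.1, edgeR 4.0.16 and DESeq2 1.42.0 were used. On the recovered tags edgeR called 4905 regions higher and 2020 lower, against 5488 and 2354 by limma. The region fits were also run on simulated data, and the outcome is not given here. Floors of 3 tags cover counting error only, since reads carried no molecular identifiers.

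Members and lists were chosen with earlier results of these data known. Named were all members (sum, strongest start region, most changed tested region, all Hpse regions), listed genes past the threshold and the 3 genes most like Hpse; other regions were named after their values were seen. Sequences came from RefSeq. Alternatives were other scaling, pseudocount, filter, test, a replicate block, left-out libraries and other sums.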

Additional observations from a re-analysis of the deposited data

How the results depend on the processing

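Of 660 alternative values, 553 had the same sign and call or stayed within 1.5 times the count, 50 counts moved, 38 values weakened, 8 became stronger and 11 reversed. Of the 271 H3K27ac values of single members between genotypes, which leave out their inputs, 246 were kept, 11 weakened, 7 became stronger and 7 reversed. Fits with 1 library left out assume that the lone library varies like the others, and the causes of the changes below were not tested.

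With 1 replicate left out, regions higher ranged from 1153 to 9666 (5488 with all), regions lower from 198 to 4731 (2354), member regions higher from 3 to 11 (10) and lower from 0 to 2 (0), and Coq2 regions lower from 0 to 7 (6). Genes higher ranged from 680 to 2266 (1468), genes lower from 189 to 1362 (750), members higher from 2 to 2 (2) and lower from 0 to 1 (0). Other degrading enzymes higher ranged from 1 to 5 (2) and lower from 0 to 2 (0), synthesis genes higher from 3 to 5 (4) and lower from 0 to 5 (5), and core proteins higher from 1 to 2 (1) and lower from 0 to 1 (1). Input genes called ranged from 0 to 228 (0), WT regions above input from 33969 to 60364 (46530), and member regions above input from 16 to 27 (22).

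With the authors' scaling, 333 regions, 0 Coq2 regions, 166 genes, 0 synthesis genes and 0 core proteins were lower, and 3 core proteins were higher. With no filter 1110 regions were lower. Regions near the start alone gave 439 genes higher, 170 lower, 2 synthesis genes higher, 1 lower and 0 core proteins higher; regions beyond gave 1 other degrading enzyme higher and 0 core proteins lower.

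Same-numbered WT and GrnKO libraries are different mice, and their deviations from the group means correlated at 0.03 over 80728 regions. With the replicate block, 3988 regions and 1136 genes were lower, 1 other degrading enzyme was lower and 2 core proteins were higher.

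Log2 changes reversed as follows. With the authors' scaling, Hgsnat's start region gave 0.013, Arsb's 0.041 and the Arsb sum 0.12. With 1 replicate left out, the Ids start region ranged from -0.84 to 0.073 (highest without GrnKO replicate 1), the Hgsnat start region from -0.50 to 0.096 and the Arsb sum from -0.16 to 0.018 (both highest without WT replicate 1). The Naglu sum beyond 1000 bp was -0.25, and the Papss1 sum near the start 0.26. With 1 input left out, Hpse inputs gave 0.22 without WT replicate 2 and 0.072 without GrnKO replicate 2, and Arsb inputs ranged from -0.36 (without WT replicate 1) to 5.01 (without WT replicate 2).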
